A study of Mus musculus with 2 samples.

Results

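Of the 6 mouse Dlx homeobox genes, 2 had a POU3F1 peak assigned to them in the embryonic retina, Dlx1 and Dlx2. The other 4 (Dlx3, Dlx4, Dlx5 and Dlx6) had none. Among all 21900 protein-coding genes, 2231 (10.2%) had one. The members are all genes of the Dlx family, and a gene was taken to have a peak where the authors' deposited gene table lists it. That table lists 2323 gene names in all. Between them, Dlx1 and Dlx2 held 3 distinct peaks in 4 gene-to-peak pairs, of 2652 peaks and 4427 pairs in the whole data set. The strongest of the 3 was assigned to both genes.

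The data came from CUT&RUN, in which an antibody brings a nuclease to a chromatin protein and the DNA released around it is sequenced. Per the labels, the tissue was retina from CD1 wild-type embryos of embryonic day 14. There were 2 libraries, 1 with an antibody to POU3F1, a transcription factor with a POU domain, and 1 with rabbit IgG. No allele, transgene or treatment is named for either group, and the number of embryos is not given in the sources used here. Peaks were listed for the POU3F1 library alone, so no value below has a replicate check, and all comparisons are descriptions of 1 peak list. Whether the authors' folds and q-values were computed against the IgG library is not stated in the labels or files, and no comparison with it was added. The files hold no expression values with which the labelled tissue could be checked.

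Dlx genes encode homeodomain transcription factors related to the fly gene Distal-less. In mouse they lie in pairs whose members face each other, with enhancers known in the space between the paired genes. Dlx1 and Dlx2 are expressed in retinal progenitors and in newborn retinal ganglion cells (RGCs), the neurons that send axons to the brain, and many later-born RGCs are lost when both genes are deleted. In the forebrain Dlx1, Dlx2, Dlx5 and Dlx6 drive the formation of GABAergic interneurons, while Dlx3 and Dlx4 are best known from skin, placenta, teeth and skeleton.

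The sequences at the starts of Dlx1 and Dlx2 are shown first. The strongest Dlx peak begins 20 bp downstream of a RefSeq start of Dlx1, and no peak overlaps the start of Dlx2. Both sequences come from RefSeq on GRCm38.p6, the assembly that mm10 denotes. They run 5′ to 3′ on the strand of the gene, with CG dinucleotides in capitals. The RefSeq promoter table held 2 of the 6 members. The 250 bases upstream of Dlx1 lie on the plus strand at chr2:71529195-71529444, and those upstream of Dlx2 on the minus strand at chr2:71546755-71547004.
Dlx1 upstream: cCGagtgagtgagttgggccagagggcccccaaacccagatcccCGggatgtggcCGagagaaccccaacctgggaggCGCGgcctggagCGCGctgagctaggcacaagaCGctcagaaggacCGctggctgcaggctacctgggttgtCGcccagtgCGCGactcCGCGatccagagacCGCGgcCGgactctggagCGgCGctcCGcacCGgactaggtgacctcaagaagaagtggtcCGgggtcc
Dlx2 upstream: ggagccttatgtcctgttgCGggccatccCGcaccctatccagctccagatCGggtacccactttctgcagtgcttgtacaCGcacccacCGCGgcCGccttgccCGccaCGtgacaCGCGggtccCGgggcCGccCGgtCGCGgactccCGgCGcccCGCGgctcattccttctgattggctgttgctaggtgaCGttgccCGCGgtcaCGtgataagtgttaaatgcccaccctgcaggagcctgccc

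Both promoters were rich in CG dinucleotides. The 300-base window of Dlx1, from 250 bases before its start to 50 after, held 27 CG dinucleotides and was 69.3% G and C, and that of Dlx2 held 29 and was 66.3%. The median over all 32817 distinct promoter windows was 7 CG dinucleotides and 52.7% G and C, and over the 222 windows that overlapped a POU3F1 peak it was 17 and 55.3%. Neither Dlx window held the octamer ATGCAAAT, the classical POU-factor motif, or the shorter homeodomain letters ATTA and TAATTA, or ATGNATNT, on either strand. Matches of TAATTA also count as ATTA. The share of all windows with a match was 1.74% for the octamer, 58.0% for ATTA, 5.30% for TAATTA and 11.3% for ATGNATNT. The promoter window covers 30 of the 795 bases of the strongest peak, and the rest of the peak was not searched.

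Dlx1 is gene 13390 in RefSeq and runs from 71528113 to 71533981 on chromosome 2, and 3 peaks were assigned to it. Their fold enrichments, the authors' values at the summit over the background, were 13.3, 9.33 and 104 in order along the chromosome. These folds equal the fragments at the summit plus 1, divided by the background plus 1, so at low background they are smaller than the plain ratio. The strongest therefore exceeded the upstream peak 7.81 times and the peak at the gene start 11.1 times. The pileup at each summit, called fragments in this text, could be recovered from the deposited fold and p-value and was 26, 18 and 210. The peak-calling settings are not given, so whether each unit is a whole fragment or a single read is not known. With exact 95% Poisson intervals, which cover counting error only since PCR copies are not independent molecules, these were 17.0 to 38.1, 10.7 to 28.4 and 183 to 240. A summit is the highest point of its peak, and the intervals do not allow for that choice. The interval of the strongest peak lay above both others, while the intervals of the 2 weaker peaks overlapped. Of the fragments at the 3 summits together, 82.7% were at the strongest.

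The strongest Dlx peak lay inside Dlx1 and not between the paired genes. It ran from 71529465 to 71530259 on chromosome 2 (795 bp), with its summit at 71529855, at 49.2% of its length. Its fold of 103.6 has a counting interval of 90.2 to 119, with the background held fixed, and its −log10 q-value was 392. The peak ended 3722 bp before the end of Dlx1 and 378 bp before Dlx1as, a non-coding antisense transcript that runs from 71530638 to 71537891 across the end of Dlx1. The space between Dlx1 and Dlx2, 9426 bp from 71533982 to 71543407, overlapped 0 peaks. The whole distance from this peak to the body of Dlx2 was 13148 bp.

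**Figure D1:**
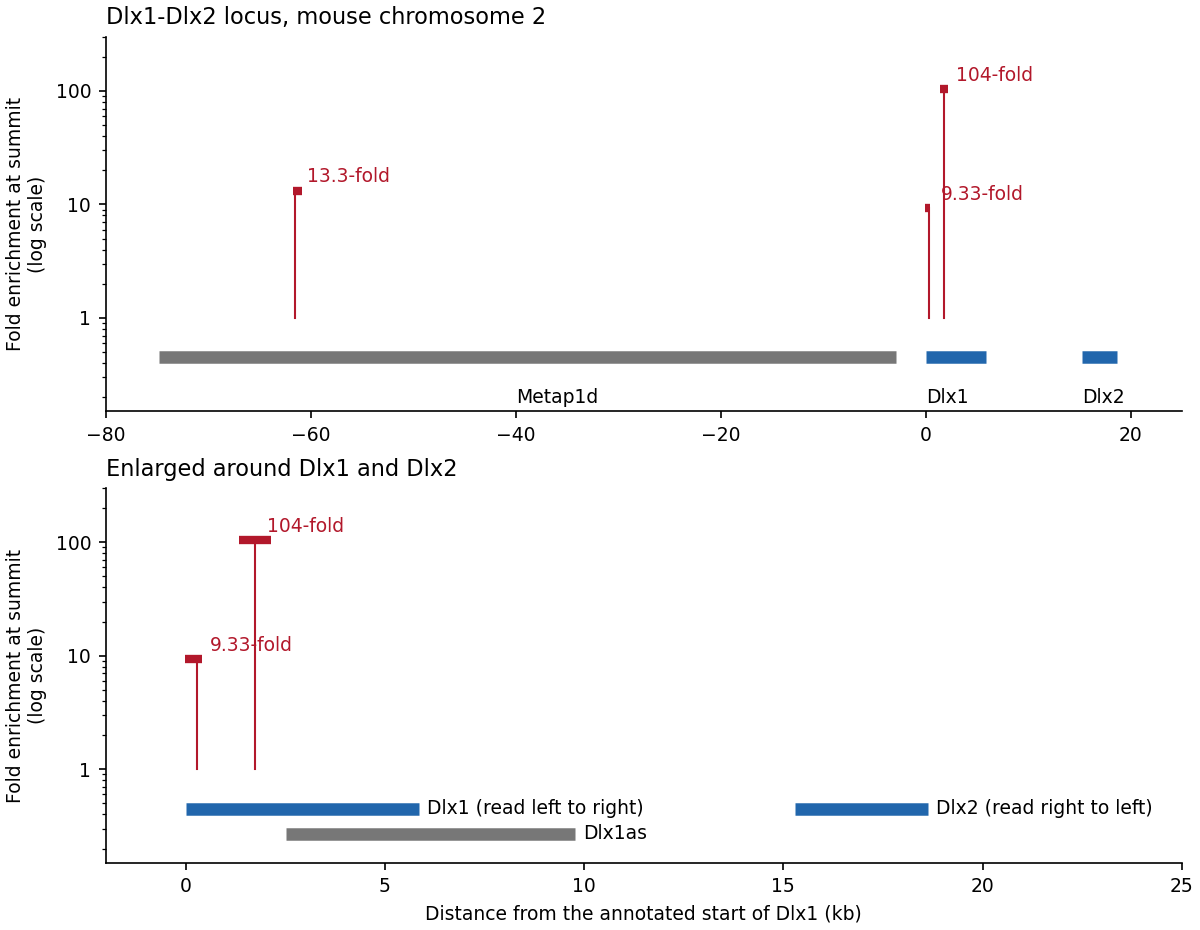
POU3F1 peaks assigned to Dlx1 and Dlx2, by distance from the annotated start of Dlx1 in kb (x axis) and fold enrichment at the summit (y axis, log scale); red bars span each peak, vertical lines mark summits, blue bars are the Dlx genes and grey bars Metap1d and Dlx1as, which is drawn in the lower panel alone. The 9.33-fold peak covers the annotated start of Dlx1, the 104-fold peak lies inside Dlx1, the 13.3-fold peak lies inside Metap1d, and no peak lies between Dlx1 and Dlx2.

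Where this peak sits relative to the start of Dlx1 depended on the start used. The deposited distance of 1749 bp downstream is counted from 71528113, the outermost start of the gene in RefSeq. The RefSeq promoter table places a start of Dlx1 at 71529445, which is 1332 bp further in. From that start the peak began 20 bp downstream, its summit lay 410 bp downstream and its midpoint 417 bp downstream. Counted to this or any other start in the promoter table, 229 of the 2652 peaks (8.6%) had their summit within 1 kb of a start.

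The weakest of the 3 peaks covered the outermost start of Dlx1. It ran from 71528091 to 71528532 (442 bp), with 22 bp before the gene and 420 bp inside it, and its midpoint was 198 bp downstream of that start. Its fold of 9.33 has a counting interval of 5.73 to 14.5 and its −log10 q-value was 13.2. A space of 932 bp separated it from the strongest peak. Peaks this close together were uncommon in the list, since 108 of 2625 neighbouring pairs (4.1%) were less than 1 kb apart and the median space was 303894 bp.

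The third peak, at 71466403 to 71467246 (844 bp), was assigned to Dlx1 at 61289 bp upstream. It lies inside Metap1d, which encodes a mitochondrial methionine aminopeptidase, and was also assigned to that gene at 13548 bp downstream of its start. Its fold was 13.3, with a counting interval of 8.83 to 19.2, and its −log10 q-value was 23.8. The summit lay at 18.5% of the peak's length. At 844 bp it was longer than 93.9% of all peaks, although its fragment count exceeded that of 64.8% alone of the peaks with a recovered count.

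Dlx2, gene 13392 at 71543408 to 71546754 on the opposite strand, had 1 assigned peak. This was the 104-fold peak inside Dlx1, placed 16892 bp downstream of the start of Dlx2, which is beyond the far end of the gene. No peak overlapped the body of Dlx2 or its promoter, and on its other side the next peak began 601095 bp away. Dlx1 and Dlx2 therefore do not provide 2 independent cases of a strong peak. Counted by locus, 1 of the 3 Dlx pairs had peaks.

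Among all peaks, the one in Dlx1 ranked 3 by fold, 17 by q-value and 179 by length. Among the 2609 peaks with a recovered fragment count it ranked 48 by fragments at the summit. The 2 peaks above it by fold, at Crlf2 (a cytokine receptor gene) and Plppr2 (a membrane phosphatase-related gene), held 682 and 421 fragments. The 3 just below held 544 fragments at Fbxo47, 259 at the peak assigned to Slit3 and Pank3, and 310 at Pank4. All 5 had more fragments than the Dlx1 peak, at backgrounds of 1.81 to 4.62 fragments against 1.04, the lowest in the list, at Dlx1. Of the 18 peaks of 50-fold or more, the Dlx1 peak was the second shortest and had the fifth lowest recovered fragment count.

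The low background applied to all 3 Dlx peaks. Each had the lowest background found in the list, 1.04 fragments when rounded, which 790 of the 2609 peaks with a recovered count (30.3%) shared. No recovered background was lower. This value may therefore be a lower limit of the peak calling and not a background measured at Dlx1, which was not tested. Among these 790 peaks the median fold was 6.39, and after the Dlx1 peak the next highest fold was 34.9, on an unlocalised contig of chromosome 4. Of the 18 peaks of 50-fold or more, 1 was at this background, that of Dlx1. The 47 peaks with a higher recovered count than the Dlx1 peak had a median background of 11.3 fragments and a median fold of 25.8. Of these 47, 22 were below 20-fold. Whether the background was set by the IgG library or by the POU3F1 library is not given in the sources used here, and its part in the rank of the Dlx1 peak by fold was not tested beyond these values.

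**Figure D2:**
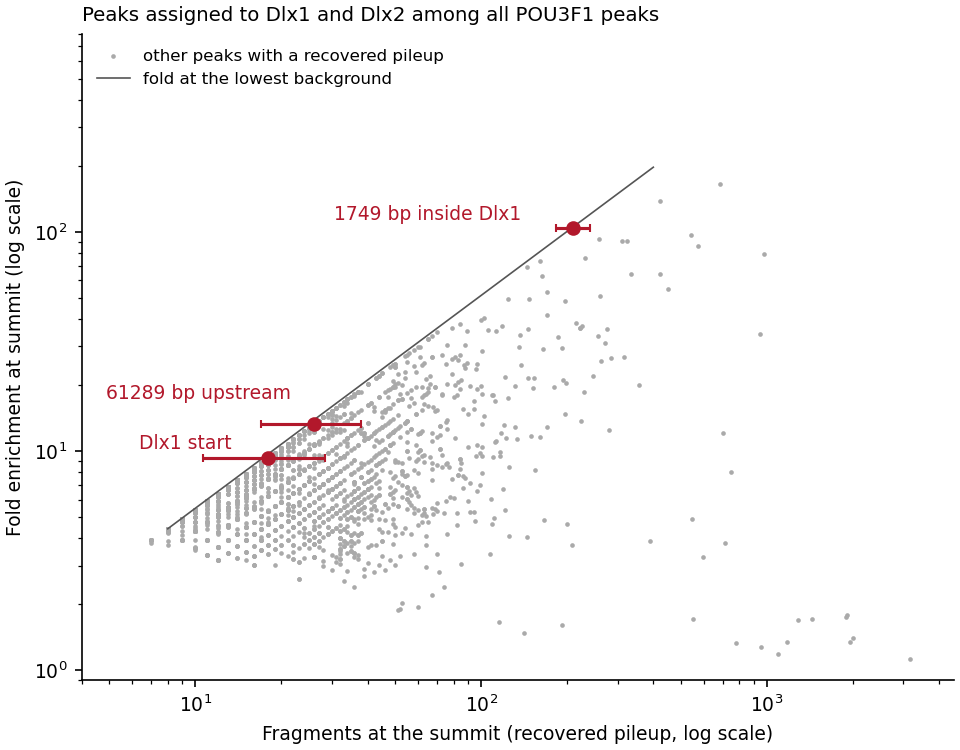
Fold enrichment against fragments at the summit, both on log scales, for the 2609 POU3F1 peaks with a recovered fragment count; grey points are other peaks, red points the 3 peaks of Dlx1 and Dlx2 with exact 95% Poisson intervals of their fragment counts, and the line gives the fold at the lowest background of 1.04 fragments. All 3 Dlx peaks sit on the line, and the peak inside Dlx1, with 210 fragments, lies highest along it.

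Set beside promoter peaks, the Dlx1 peak was also strong. A promoter window was overlapped by 180 peaks (6.8% of the list), among which it ranked 3 by fold and 14 by recovered fragment count. These 180 peaks had a median fold of 8.01, a median of 34 fragments and a median background of 2.57, and 36 of them were at the lowest background. The Dlx1 peak belongs to this group through its 30 shared bases alone.

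Dlx5 and Dlx6, the second forebrain pair, had no assigned peak. Dlx6 (gene 13396) lies at 6863334 to 6867970 and Dlx5 (gene 13395) at 6877801 to 6882068 on chromosome 6, with 9830 bp between them. The nearest peaks lay 689149 bp from Dlx6, at 6173706 to 6174185 (7.20-fold, 21 fragments), and just beyond it at 6163180 to 6163592 (17.3-fold, 53 fragments). Both were assigned to Slc25a13, a mitochondrial carrier gene, and to Dync1i1, a dynein subunit gene. On the other side the next peak began 4181740 bp from the end of Dlx5. The pair sat in a stretch of 4.89 Mb without a peak, and 87 of 2625 spaces between neighbouring peaks (3.3%) were longer. A longer space is more likely to hold a given gene, so this share does not say how unusual the place is for a gene. Within 1 Mb of the pair lay 2 peaks, a number that 76.5% of protein-coding genes did not exceed.

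Dlx3 and Dlx4 had no assigned peak either. Dlx3 (gene 13393) lies at 95120117 to 95125296 and Dlx4 (gene 13394) at 95140447 to 95146294 on chromosome 11. The nearest peak, at 95666722 to 95666930 (12.8-fold, 25 fragments), was 520428 bp from Dlx4 and lay 131 bp upstream of Phb, which encodes prohibitin. On the other side the nearest was 792408 bp from Dlx3, 540 bp upstream of Ankrd40 (6.88-fold, 13 fragments). This stretch without a peak measured 1.34 Mb, and 21.7% of the spaces between neighbouring peaks were longer, a share with the same limit. Within 1 Mb of the pair lay 2 peaks, which 76.5% of protein-coding genes did not exceed. The lowest fragment count of any listed peak with a recovered count was 7. Coverage outside listed peaks was not read, so signal at Dlx3, Dlx4, Dlx5 or Dlx6 that was not called as a peak was not assessed.

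**Figure D3:**
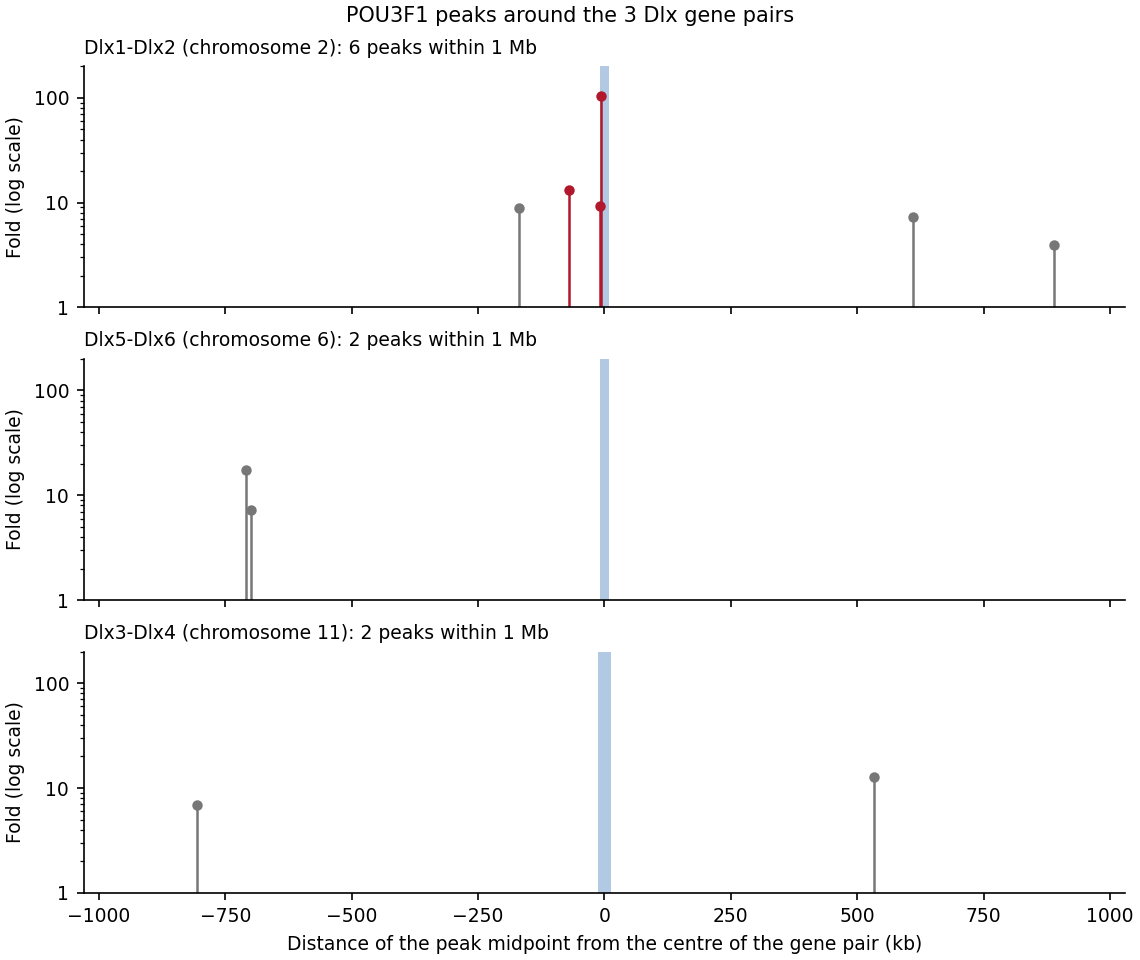
POU3F1 peaks within 1 Mb of each Dlx gene pair, by distance of the peak midpoint from the centre of the pair in kb (x axis) and fold enrichment (y axis, log scale); red stems are peaks assigned to a Dlx gene, grey stems are peaks assigned to other genes, and the blue band spans the pair. Dlx1-Dlx2 has 6 peaks, 3 of them assigned to Dlx genes, and each of the other pairs has 2, the nearest 520428 bp away.

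The number of peaks within 1 Mb, counting those assigned to Dlx genes, differed between the 3 pairs. Within 1 Mb of Dlx1 or Dlx2 lay 6 peaks, a number that 95.1% of 21887 protein-coding genes did not exceed. These 6 include the 3 peaks assigned to Dlx genes, so that share partly restates the assignments. Within 1 Mb of each of the other 4 members lay 2. The median over protein-coding genes was 1 peak (quartiles 0 and 2), and 34.1% had none. Besides the 3 Dlx peaks, those near Dlx1 and Dlx2 were at the start of Slc25a12, another mitochondrial carrier gene (8.84-fold, 13 bp downstream), and at 2 sites assigned to Rapgef4, Map3k20 and Cdca7 (7.37-fold and 3.92-fold). Of the 3 nearest protein-coding genes on each side of Dlx1 and Dlx2, Slc25a12, Metap1d and Rapgef4 had an assigned peak, and Hat1, Itga6 and Pdk1 had none. Of the same 6 genes around Dlx5 and Dlx6, Slc25a13 and Dync1i1 had peaks, and Sem1, Sdhaf3, Tac1 and Asns had none. Around Dlx3 and Dlx4 none of the 6 had one: Samd14, Pdk2, Itga3, Tac4, Kat7 and Fam117a.

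As a share, 2 of 6 Dlx genes (33.3%) had an assigned peak, against 2231 of 21900 protein-coding genes, or 10.2%. With peaks at a q-value under 0.01 or under 0.001 alone the Dlx count was 2, against 9.95% and 9.56% of protein-coding genes. With peaks of at least 10-fold alone the Dlx count was 2, against 2.77% of protein-coding genes. Within 50 kb of the start used by the deposited table it was 2, against 3.67%, and within 5 kb it was 1 (Dlx1), against 1.4%. Since Dlx1 and Dlx2 share the peak that gives the count at 10-fold and at 50 kb, these shares rest on 1 locus and were not tested.

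Peaks assigned to the other homeodomain families compared here were all weaker than the one in Dlx1, and the share of genes with a peak was above that of Dlx in some families and below it in another. The Iroquois genes, which also lie in clusters and pattern the retina, had a peak in 6 of 6 cases. Their strongest folds ran from 7.37 at Irx6 to 12.1 at Irx3 and Irx5, which share that peak. Irx2 and Irx4 also share their strongest peak (9.29-fold). The 6 genes held 13 distinct peaks, and they are not 6 independent cases. Irx3 had 8 peaks, the most of this list, and Irx5 had 4. Within 50 kb of the start, 1 Iroquois gene had one (Irx6, 3209 bp upstream). Of the Brn3 genes, POU-homeodomain factors of RGC differentiation, 2 of 3 had a peak, Pou4f1 (19.7-fold) and Pou4f2 (10.9-fold). LIM-homeodomain genes had one in 5 of 12 cases, with Lhx9 at 10.9-fold and Isl1, an RGC factor gene, with 9 peaks of up to 9.33-fold. NK, Msx and related genes had one in 8 of 34, with Nkx6-2 (22.6-fold), Barhl2 (20.2-fold), Hmx3 (17.6-fold) and Emx1 (12.6-fold) strongest. Of the 58 genes in the Dlx, Iroquois, LIM and NK lists, none outside Dlx exceeded 22.6-fold, and the differences between lists were not tested.

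**Figure D4:**
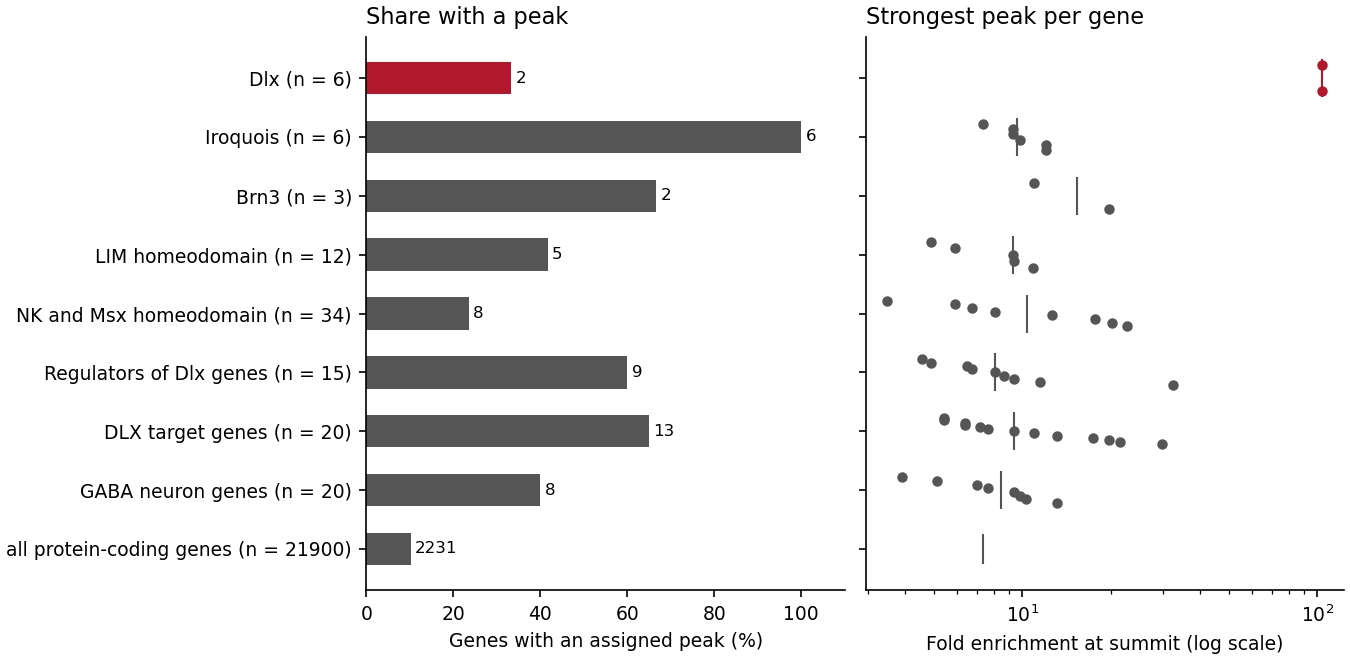
Left, percentage of genes with an assigned POU3F1 peak in each list, with the number of such genes beside each bar; right, fold enrichment (log scale) of the strongest peak of each gene with a peak, where short vertical lines are list medians and all protein-coding genes are shown by their median of 7.33 alone. The 2 Dlx genes share 1 peak of 104-fold, while 6 of 6 Iroquois genes have a peak, some shared between genes, none above 12.1-fold.

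Genes placed around the Dlx factors in regulatory networks are described next, beside the 10.2% of protein-coding genes with a peak. The lists were drawn from general knowledge of retina and forebrain, but with earlier results of these data known. Their shares with a peak are therefore descriptions and not support for a link to POU3F1. The lists share some genes, and not every link in them is known for the retina. Long or isolated genes collect more peaks under this assignment, and the counts below are neither corrected for that nor tested. Of 15 genes for factors that act upstream of Dlx genes or beside them, 9 had a peak, with a median strongest fold of 8.07 against 7.33 over all protein-coding genes with one. Pax6, a master gene of eye development, had 7 peaks, the strongest 11.4-fold and 665 bp upstream. Meis2, a homeobox gene, had 2 (up to 9.33-fold). Atoh7, needed for RGC birth, had 1 (8.66-fold, 10148 bp upstream). Gsx2, Foxn4, Msx1, Sp9 and the antisense gene Dlx6os1 were among those without one.

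Of 20 genes listed as targets of DLX factors, 13 had a peak, with a median strongest fold of 9.33. Targets studied in the retina were not alike in this respect. Pou4f2 had a peak 2788 bp upstream of its start (10.9-fold, 22 fragments), and Crx, a photoreceptor factor gene, had none. Otx2, in the same list, had 1 peak (5.40-fold, 282019 bp upstream), and Rbpms had none. Mef2c had 19 peaks (strongest 29.8-fold), Cadm1, an adhesion gene, had 9 (21.5-fold, 55 bp downstream of the start, 153 fragments), and Cxcr4, a chemokine receptor gene, had 3 (17.3-fold). Nrp2, a semaphorin receptor gene, had 4 peaks of up to 5.40-fold. Of the genes for GABA synthesis, Gad2 had 3 peaks, the strongest 328503 bp upstream (13.1-fold), and Gad1 had none. Among 20 genes of GABAergic neurons, 8 had a peak, with a median strongest fold of 8.48, and besides Gad2 only Prox1 reached 10-fold (10.3-fold, 557733 bp upstream). Nr4a2 had 2 peaks of up to 9.79-fold. Within 5 kb of the start, 2 of the 20 target genes (Pou4f2 and Cadm1), 1 of the 15 upstream genes (Pax6) and none of the GABAergic genes had a peak, against 1.4% of protein-coding genes.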

How the data were processed

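The 3 deposited files describe the POU3F1 library. Per the submitters' processing notes, Bowtie2, MACS2 and deepTools were used with mouse build mm10, and the sources used here give no versions or settings. The authors' narrow-peak list gives each interval a fold enrichment (a ratio), the −log10 of its p-value and q-value, and a score, which equalled the whole part of 10 times the −log10 q-value in all 2652 deposited rows. Per the file headers, GREAT 4.0.4 assigned peaks to genes using domains that reach 5000 bp upstream and 1000 bp downstream of each start and are extended by at most 1000000 bp, with curated domains included.

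Each deposited distance was placed on a peak midpoint within 1 bp by seeking the start and strand that place most distances of a gene, which placed 4280 pairs (96.7%). All 4 Dlx pairs were placed, and counts by fold or q-value use placed pairs alone. The IgG library was not analysed here. Of the gene names, 2184 matched RefSeq by symbol, 86 by synonym and 53 not at all. Fragments at a summit were recovered as the whole number that gives the authors' fold and p-value under a Poisson tail, with 1 added to both fragments and background in the fold, within 0.001 of the −log10 p-value, for 2609 peaks (98.4%; median 19). On 999 simulated peaks the recovery was right in 100%, while 0.4% of p-values altered on purpose still gave a whole number. Of 197 simulated pairs, 100% were placed correctly. The simulated peaks were built with the formula used for the recovery, and the simulated pairs had their starts at gene ends. These checks therefore test the code alone and give no accuracy for the deposited peaks. Library depth is unknown. Python 3.11.15, SciPy 1.17.1 and pandas 2.3.3 were used.

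The Dlx genes and all lists were chosen with earlier results of these data known. Genes named were the members, genes sharing a peak with them, the 3 nearest protein-coding genes on each side, neighbours in rank, and list genes of at least 10-fold or with most peaks. Crx, Otx2, Gad1, Atoh7, Irx6 and the genes without a peak were named after their values were seen. Alternatives were other q-value, fold and distance limits and other rankings. Some list genes and bases that passed these rules are not reported here.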

Additional observations from a re-analysis of the deposited data

How the results depend on the processing

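The count of 2 Dlx genes was unchanged under both stricter q-value limits, at 10-fold and within 50 kb. The lowest −log10 q-value of the Dlx peaks was 13.2, so neither q-value limit could remove a peak. At 10-fold and within 50 kb, Dlx2 was counted through the 104-fold peak that it shares with Dlx1. The count of 3 Dlx peaks was unchanged under both q-value limits. It fell to 2 at 10-fold, within 50 kb and within 5 kb, which was still within 1.5 times. The gene count fell to 1 when pairs were limited to 5 kb of the start or to peaks overlapping the gene body, since Dlx2 has neither. Matched to summits instead of midpoints, 0 of the Dlx peaks were placed, because the deposited distances are counted from midpoints. The rank of the peak in Dlx1 was 3 by fold, also on autosomes and X alone, but 17 by q-value, 48 by recovered fragment count and 179 by length. Its distance of 1749 bp became 417 bp from the start in the promoter table, an alternative chosen after seeing the data, and 1742 bp from the summit. Of 96 distinct genes in the other lists, 43 had a peak (10.2% of all protein-coding genes did), 15 within 50 kb of the start (3.67%) and 5 within 5 kb (1.4%). These lists were made with earlier results of the data known, so the shares are descriptions only. Leaving out a replicate was not possible with 1 library for each antibody, and no paired analysis was possible because each antibody has 1 library and peaks are listed for POU3F1 alone.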

Other observations

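The octamer ATGCAAAT, which neither Dlx promoter window held on either strand, was present in 47 of the 222 promoter windows overlapped by a POU3F1 peak (21.2%), against 570 of all 32817 windows (1.74%). For ATTA the shares were 70.3% and 58.0%, for TAATTA 9.46% and 5.30%, and for ATGNATNT 15.8% and 11.3%. Windows of neighbouring genes can overlap and share a peak, so they are not independent, and these shares were not tested.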
